A study of Homo sapiens with 6 samples.

Results

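The ZNF genes of chromosome 19 are described here as those rows of the deposited count table that are typed protein coding, carry a symbol of ZNF followed by a digit and lie on chromosome 19. They number 241 of the 30987 genes in the table. The choice used names and positions, and no measured value, but earlier results of these data were known when it was made. HepG2 cells, a human line from a liver tumor, received siRNA3 against PAIP1 (siPAIP1) or non-targeting siRNA (Ctrl) by lipofection and were harvested 48 h later, with 3 biological replicates per group. The PAIP1 protein binds poly(A)-binding protein and helps mRNA to be translated. Poly(A) RNA was sequenced, and the deposited counts total 29313211 to 34157368 in the siPAIP1 libraries and 31045623 to 34659866 in the Ctrl libraries. A single siRNA in a single cell line was sequenced.

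Most proteins of this family bind DNA through a row of C2H2 zinc fingers, in which a pair of cysteines and a pair of histidines hold a zinc ion. Many also carry a KRAB box, which binds the corepressor TRIM28 and through it the histone methyltransferase SETDB1, so that the bound DNA is packed into silent chromatin. The genes stand in clusters that arose by repeated duplication, and several of their proteins silence endogenous retroviruses and other mobile elements.

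PAIP1 was lowered in the libraries labelled siPAIP1. Its level was 8.29, 6.54 and 5.47 FPKM (fragments scaled to exon length and library depth) in siPAIP1, against 26.83, 22.96 and 26.01 FPKM in Ctrl, with the highest siPAIP1 library far under the lowest Ctrl library. The log2 fold change was -1.93 (SE 0.13, edgeR adjusted p = 0.00092), and p was 0.1 in an exact two-sided permutation test, in which 3 against 3 libraries cannot go lower. Of 9 hepatocyte markers, 5 (ALB, APOA1, TF, SERPINA1 and TTR) were lower in every siPAIP1 library than in any Ctrl library, and AFP, APOB, FGB and HNF4A overlapped between the groups. ALB, the serum albumin gene, was at 279 to 557 FPKM in siPAIP1 and 685 to 744 FPKM in Ctrl, and the 9 summed to 1735 to 2693 FPKM in siPAIP1 and 3127 to 3315 FPKM in Ctrl. The 3 fibroblast markers measured summed to 0.04 to 0.15 FPKM in siPAIP1 and 0.03 to 0.04 FPKM in Ctrl, with COL1A1 the highest, at 0.13 FPKM in siPAIP1 replicate 3. The 3 endothelial markers summed to 0.17 to 0.28 FPKM in siPAIP1 and 0.23 to 0.30 FPKM in Ctrl. LYZ, listed here among immune markers, was at 182 to 269 FPKM in siPAIP1 and 259 to 286 FPKM in Ctrl, whereas CD68 was at 0.83 to 1.00 FPKM in siPAIP1 and 0.83 to 0.93 FPKM in Ctrl. The part of these marker levels in the results on ZNF genes was not tested. siPAIP1 replicate 3 stands apart: of 13201 genes with a mean CPM (counts scaled to library depth) of at least 1, 732 were over 2-fold higher there than the mean of siPAIP1 replicates 1 and 2. That count was at most 47 for any other library against its own group. Results that rest on this library are therefore given with and without it.

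Of the 241 ZNF genes, 206 had enough counts to be tested. The other 35 reached at most 32 counts in any library, and none of them was at 0 in all 6. By edgeR's quasi-likelihood test at an adjusted p under 0.05, 23 of the 206 rose in siPAIP1, where 5.68% of all 15528 tested genes rose, and 0 fell, where 6.20% of all tested genes fell. At an unadjusted p under 0.05, 60 were higher and 6 lower. The shares of all tested genes at that threshold were not worked out, so these counts have no background beside them. edgeR's exact test called 1 ZNF gene lower, ZNF320, where 6.58% of all tested genes fell. DESeq2 called 0 lower, where 6.49% of all tested genes fell. limma on log2(FPKM + 0.1) and on log2(FPKM + 1) also called 0, where 3.91% and 3.79% fell. The median log2 fold change was 0.27 over the 206 ZNF genes and 0.03 over all tested genes, and 161 of the 206 changes were positive (78.2%, against 54.9% of all tested genes). The groups did not overlap in 78 of the 206 (36.6% of all tested genes), with siPAIP1 on top in 73 and Ctrl on top in 5, where siPAIP1 was on top in 2946 of the 5685 such genes of the whole table. The 5 were ZNF580, ZNF320, ZNF780A, ZNF114 and ZNF44. Only ZNF583 and ZNF112 passed both the adjusted p and the 2-fold threshold that define DEGs (differentially expressed genes). Of all tested genes, 1.11% passed both upward and 1.10% downward. In bulk RNA, a change in the number of cells that express a gene and a change in its RNA per cell cannot be told apart.

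The shift was present in each siPAIP1 library. Each gene's CPM was divided by its mean over the Ctrl libraries, and the median of the log2 ratios was 0.12, 0.19 and 0.33 in siPAIP1 replicates 1 to 3, against -0.02, 0.07 and -0.08 in Ctrl replicates 1 to 3. Summed over all 241 genes, the level was 1408, 1432 and 1690 CPM in siPAIP1 and 1292, 1377 and 1288 CPM in Ctrl. All siPAIP1 libraries were above all Ctrl libraries in both measures, with replicate 3 the highest. The median FPKM was 0.74, 0.74 and 0.87 in siPAIP1 and 0.60, 0.64 and 0.60 in Ctrl.

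The number of calls depended on single libraries. Without Ctrl replicate 1, 2 of the tested ZNF genes rose (0.96%, against 1.17% of all tested genes). Without Ctrl replicate 2, 3 rose (1.44%, against 1.68%), and without Ctrl replicate 3, 1 rose (0.48%, against 1.21%). Without siPAIP1 replicate 1, 13 rose (6.22%, against 3.57%), and without siPAIP1 replicate 2, 3 rose (1.44%, against 1.85%). In 4 of the 6 leave-one-out fits the share of ZNF genes that rose was thus under that of all tested genes. DEGs among the ZNF genes numbered 0, 1 and 0 without Ctrl replicates 1, 2 and 3 (0.988%, 1.24% and 0.942% of all tested genes) and 4, 0 and 4 without siPAIP1 replicates 1, 2 and 3 (2.07%, 1.30% and 2.74%). Without siPAIP1 replicate 3, 37 rose (17.96%, against 11.8% of all tested genes), among them all 23, and 6 fell (12.4% of all tested genes fell there). The 6 were ZNF114, ZNF320, ZNF331, ZNF580, ZNF749 and ZNF780A. The median was 0.17 without that library, while that of all tested genes was -0.00082. With a trend on gene length removed from each library, 11 rose (5.34%, against 3.43% of all tested genes) and 3 fell (1.46%, against 8.03%), and among all tested genes the share of calls that were higher was 29.9% in place of 47.8%. The median of all tested genes moved to -0.08 under that correction and the median of the ZNF genes to 0.13, a difference of 0.21 against 0.24 without it. The ZNF genes had a median length, implied by counts and FPKM, of 1.33 times that of all tested genes.

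**Figure D1:**
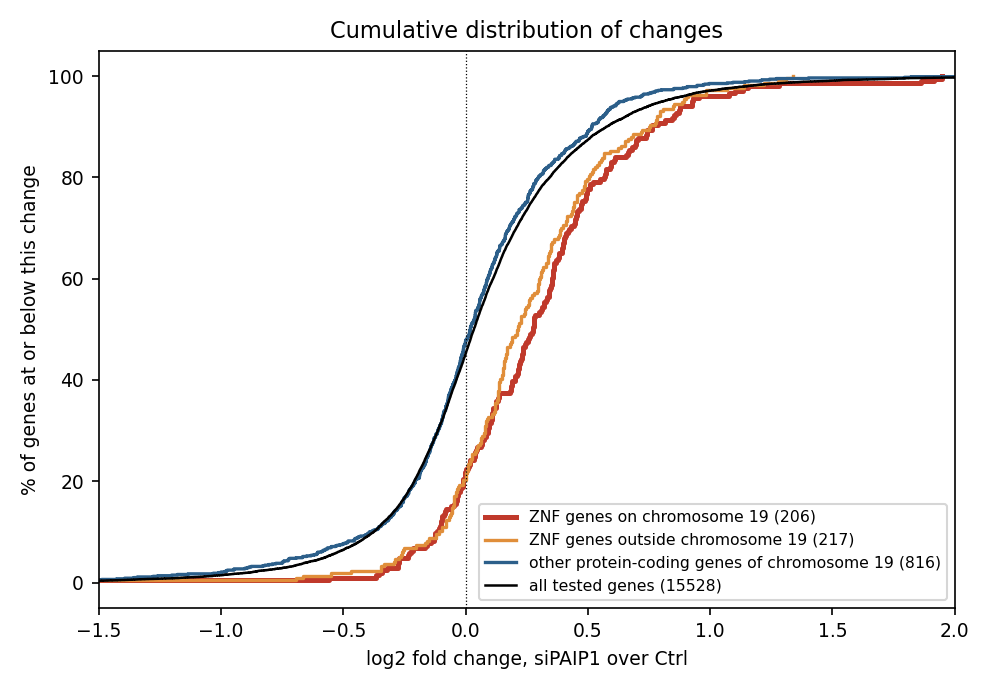
The curves give the share of tested genes (vertical axis, %) at or below each log2 fold change, siPAIP1 over Ctrl (horizontal axis), for the 206 ZNF genes of chromosome 19, 217 ZNF genes of other chromosomes, 816 other protein-coding genes of chromosome 19 and all 15528 tested genes. Both ZNF curves lie to the right of the others, with medians of 0.27 and 0.21 against 0.02 for the other genes of chromosome 19 and 0.03 for all tested genes.

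The neighbours on the chromosome and the rest of the family were set beside these values. Of all tested genes, 5.68% rose and 6.20% fell. Among the 217 tested ZNF genes outside chromosome 19, 21 rose (9.68%) and 3 fell (1.38%), with a median log2 fold change of 0.21. Among the 816 other protein-coding genes of chromosome 19, 51 rose (6.25%) and 53 fell (6.50%), with a median of 0.02. The 9 tested ZFP, ZSCAN, ZKSCAN, ZIM and ZIK genes of chromosome 19, which also encode zinc-finger proteins, included 0 that rose and 0 that fell, and their median was -0.26. The differences between these lists were not tested.

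By a gap of over 1 Mb between starts, the 241 genes fell into 15 clusters (RefSeq positions, GRCh38.p14). The counts per cluster stand beside 5.68% of all tested genes that rose in the main fit. The cluster from ZNF101 to ZNF254 (chr19:19668153-24129968), next to the centromere, had 24 tested genes, of which 5 rose and 23 had a positive change, with a median log2 fold change of 0.43. Its median log2 ratio was 0.25, 0.34 and 0.67 in siPAIP1 replicates 1 to 3, and without replicate 3 its median change was 0.35. The cluster from ZNF175 to ZNF331 (chr19:51571283-53580269) had 32 tested genes, of which 6 rose, and a median of 0.42, or 0.34 without siPAIP1 replicate 3. In the cluster from ZNF653 to ZNF791 (chr19:11483429-12633834), 0 of 26 tested genes rose, 13 had a positive change, and the median was 0.0035, ranging from -0.087 to 0.035 over the other settings tried. ZNF44 had its lowest adjusted p (log2 fold change -0.34, edgeR adjusted p = 0.14). That cluster gave 1 gene higher without siPAIP1 replicate 3, where 11.8% of all tested genes rose, and 0 under every other setting.

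The remaining large clusters lay between these. ZNF565 to ZNF573 had 3 of 24 tested genes higher and a median of 0.36, and ZNF628 to ZNF446, at the end of the long arm, had 5 of 49 and a median of 0.28. Without siPAIP1 replicate 3 the median of ZNF565 to ZNF573 was 0.23, with 4 genes higher, and that of ZNF628 to ZNF446 was 0.13, with 6 higher and 2 lower. In that fit 11.8% of all tested genes rose and 12.4% fell. ZNF565 to ZNF573 had 0 genes higher in each of the other 5 leave-one-out fits, and ZNF628 to ZNF446 had 0 or 1 in all of those but the one without siPAIP1 replicate 1, with 4. In those 5 fits 1.17% to 3.57% of all tested genes rose. ZNF575 to ZNF296 had 2 of 19 and ZNF557 to ZNF846 had 2 of 13, each with a median of 0.23. Without siPAIP1 replicate 3 these medians were 0.18 and 0.21, with 3 genes higher in each. The other 8 clusters held 1 to 5 ZNF genes each and no called gene. The lowest adjusted p in each of them was that of ZNF554 (0.13), ZNF333 (1.00), ZNF507 (0.54), ZNF599 (0.30), ZNF780A (0.08), ZNF526 (0.34), ZNF114 (0.09) and ZNF473 (0.16), all from edgeR's quasi-likelihood test. The clusters were compared as descriptions only. Over the leave-one-out settings, the count of genes higher in the ZNF101 to ZNF254 cluster ranged between 0 and 9. It was 0 without any 1 of the Ctrl libraries or siPAIP1 replicate 2, and 9 without siPAIP1 replicate 3. In the ZNF175 to ZNF331 cluster the count higher ranged between 1 and 11. Without siPAIP1 replicate 3, 2 genes of that cluster were also lower, where 12.4% of all tested genes fell. The share of all tested genes that rose ranged from 1.17% to 11.8% over these settings, with the highest share without siPAIP1 replicate 3.

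**Figure D2:**
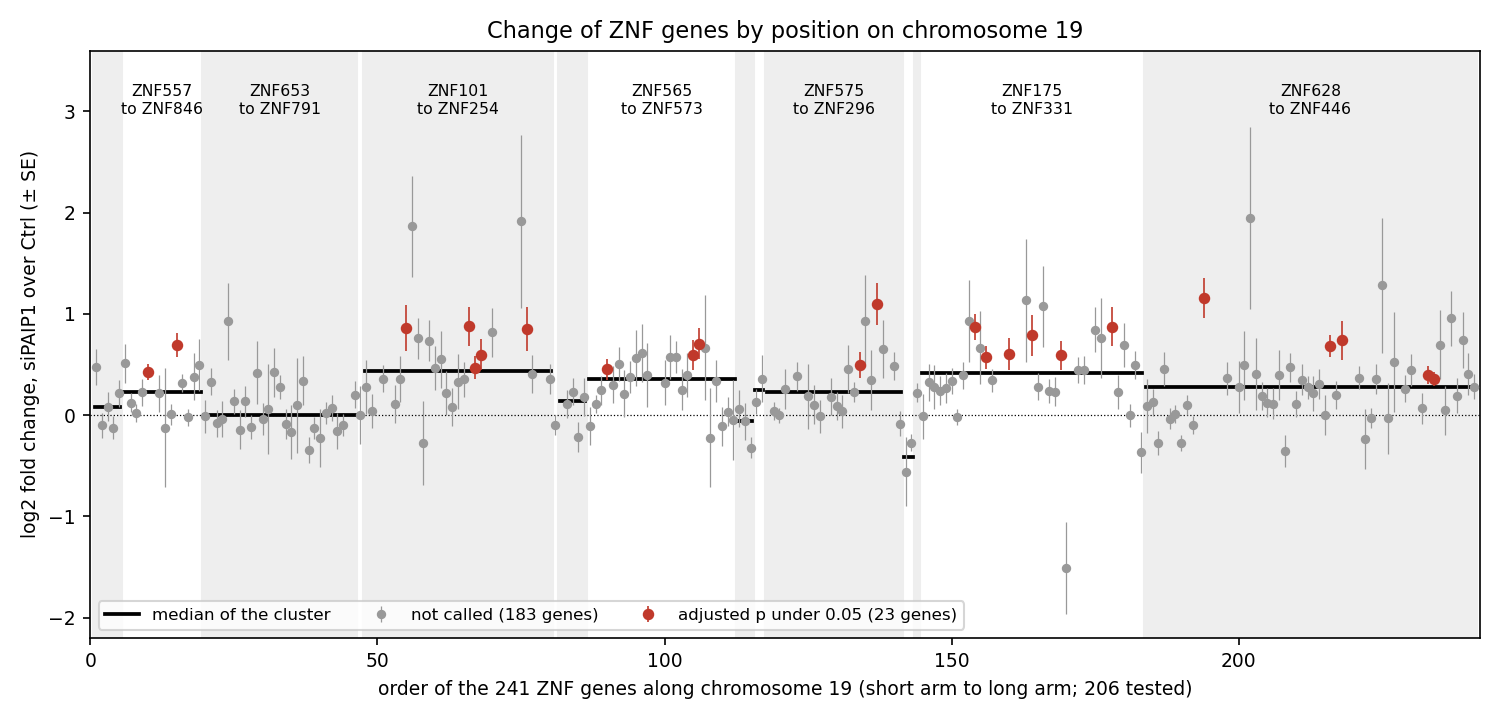
Each point is 1 of the 206 tested ZNF genes, placed by its rank along chromosome 19 (horizontal axis), with its log2 fold change, siPAIP1 over Ctrl, and SE (vertical axis). Red points have an adjusted p under 0.05 (23 genes), black lines are cluster medians and shading marks alternate clusters. The median is 0.43 in ZNF101 to ZNF254 and 0.0035 in ZNF653 to ZNF791.

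Both of these clusters carry a shared promoter sequence, shown here because they differ in their changes. A word of 10 bases, TCCAATCAGG, which contains a CCAAT box, was the 10-base word most in excess in ZNF promoters of chromosome 19 over all promoters. Promoters run 250 bases before to 50 after a RefSeq start, and both strands were searched. The word was found in 43 of 210 ZNF promoters of chromosome 19 (20.5%), in 13 of 196 ZNF promoters of other chromosomes, in 0 of 975 other promoters of chromosome 19 and in 78 of all 15843 protein-coding promoters (0.492%). By cluster, it was in 26 of 28 promoters of ZNF101 to ZNF254, in 14 of 24 of ZNF653 to ZNF791 and in 3 of 5 of ZNF554 to ZNF77, and in 0 of any other cluster. The promoters of ZNF791 and ZNF490 overlap on opposite strands, so their matches are the same copy, counted for both genes. Over all its copies in the ZNF101 to ZNF254 cluster, it began 24 to 88 bases before the start. Another word, CTGTCACTCA, which does not overlap it, was in 33 of the 210 promoters, of which 22 were in ZNF101 to ZNF254 and 11 in ZNF653 to ZNF791, and in 75 of all 15843 (0.473%).

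The promoters of the 5 called genes of ZNF101 to ZNF254 are printed below with 2 of ZNF653 to ZNF791, the pair with both words and the highest mean CPM there (ZNF440 and ZNF564). The sequences are RefSeq's, from GRCh38.p14, each read 5′ to 3′ along its gene, and capitals mark the 2 words on the strand of the gene. They lie on the plus strand for ZNF486 (chr19:20166964-20167263), ZNF429 (chr19:21505352-21505651) and ZNF440 (chr19:11814023-11814322). They lie on the minus strand for ZNF100 (chr19:21767530-21767829), ZNF43 (chr19:21836133-21836432), ZNF91 (chr19:23395422-23395721) and ZNF564 (chr19:12551433-12551732).
ZNF486: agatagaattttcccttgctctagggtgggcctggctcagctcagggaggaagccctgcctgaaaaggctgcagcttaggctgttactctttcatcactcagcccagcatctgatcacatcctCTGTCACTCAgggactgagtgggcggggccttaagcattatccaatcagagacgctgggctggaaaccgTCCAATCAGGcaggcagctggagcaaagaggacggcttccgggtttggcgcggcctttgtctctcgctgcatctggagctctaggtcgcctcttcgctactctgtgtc
ZNF429: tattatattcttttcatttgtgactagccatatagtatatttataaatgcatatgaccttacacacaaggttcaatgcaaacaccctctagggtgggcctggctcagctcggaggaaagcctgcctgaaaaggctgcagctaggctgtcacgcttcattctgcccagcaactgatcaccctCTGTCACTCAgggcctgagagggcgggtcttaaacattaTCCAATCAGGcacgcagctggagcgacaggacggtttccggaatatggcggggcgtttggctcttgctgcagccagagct
ZNF100: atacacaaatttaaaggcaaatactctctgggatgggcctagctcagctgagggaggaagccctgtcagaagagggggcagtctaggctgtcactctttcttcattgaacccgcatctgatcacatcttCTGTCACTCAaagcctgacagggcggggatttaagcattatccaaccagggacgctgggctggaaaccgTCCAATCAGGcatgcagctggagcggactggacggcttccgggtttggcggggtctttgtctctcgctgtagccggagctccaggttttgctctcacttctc
ZNF43: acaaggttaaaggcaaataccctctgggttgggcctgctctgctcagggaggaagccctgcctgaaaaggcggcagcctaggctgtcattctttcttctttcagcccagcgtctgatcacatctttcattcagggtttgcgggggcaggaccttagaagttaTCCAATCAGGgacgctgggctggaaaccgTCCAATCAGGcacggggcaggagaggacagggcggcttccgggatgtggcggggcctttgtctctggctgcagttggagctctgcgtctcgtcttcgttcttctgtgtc
ZNF91: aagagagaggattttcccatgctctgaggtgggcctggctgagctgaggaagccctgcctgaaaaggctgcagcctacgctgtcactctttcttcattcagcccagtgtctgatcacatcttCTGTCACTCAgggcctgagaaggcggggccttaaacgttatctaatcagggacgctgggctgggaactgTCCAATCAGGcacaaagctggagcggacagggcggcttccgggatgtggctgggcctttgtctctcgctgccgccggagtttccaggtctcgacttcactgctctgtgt
ZNF440: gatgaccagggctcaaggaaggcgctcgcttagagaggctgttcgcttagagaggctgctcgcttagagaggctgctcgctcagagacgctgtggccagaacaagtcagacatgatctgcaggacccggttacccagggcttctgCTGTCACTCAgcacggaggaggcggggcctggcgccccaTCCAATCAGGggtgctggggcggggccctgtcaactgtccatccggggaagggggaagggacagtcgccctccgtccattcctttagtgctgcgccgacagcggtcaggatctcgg
ZNF564: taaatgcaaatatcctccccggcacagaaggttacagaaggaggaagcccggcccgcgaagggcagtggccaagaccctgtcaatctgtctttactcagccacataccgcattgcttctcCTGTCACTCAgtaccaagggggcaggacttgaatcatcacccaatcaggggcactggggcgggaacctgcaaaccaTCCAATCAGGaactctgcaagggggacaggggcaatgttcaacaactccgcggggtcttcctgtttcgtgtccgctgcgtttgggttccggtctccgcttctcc

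ZNF43 holds the CCAAT word in 2 places and lacks the other word, and the other 6 hold each word once. ZNF genes with and without each word were set side by side. Those with TCCAATCAGG lie only in ZNF101 to ZNF254 (median 0.43), ZNF653 to ZNF791 (0.0035) and ZNF554 to ZNF77 (0.08). Those with CTGTCACTCA lie only in ZNF101 to ZNF254 and ZNF653 to ZNF791. In the medians below, word and cluster therefore cannot be told apart. The median log2 fold change was 0.25 over the 36 tested genes with TCCAATCAGG, of which 5 rose (13.9%), and 0.28 over the 147 without it, of which 18 rose (12.2%). The median of the tested genes with CTGTCACTCA was 0.35 (27 genes, 4 or 14.8% higher), and that of the 156 without it was 0.28, with 19 higher (12.2%). Of all tested genes, 5.68% rose. ZNF440 was at 10.96, 11.6 and 14 CPM in siPAIP1 and 11.7, 11.4 and 10.1 CPM in Ctrl (log2 fold change 0.13, edgeR adjusted p = 0.49). ZNF564 was at 7.32, 6.58 and 6.07 CPM in siPAIP1 and 6.98, 6.97 and 7.38 CPM in Ctrl (log2 fold change -0.09, edgeR adjusted p = 0.60), and the groups overlapped in both genes. A match to a word is a description of the sequence and was not tested as a binding site.

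**Figure D3:**
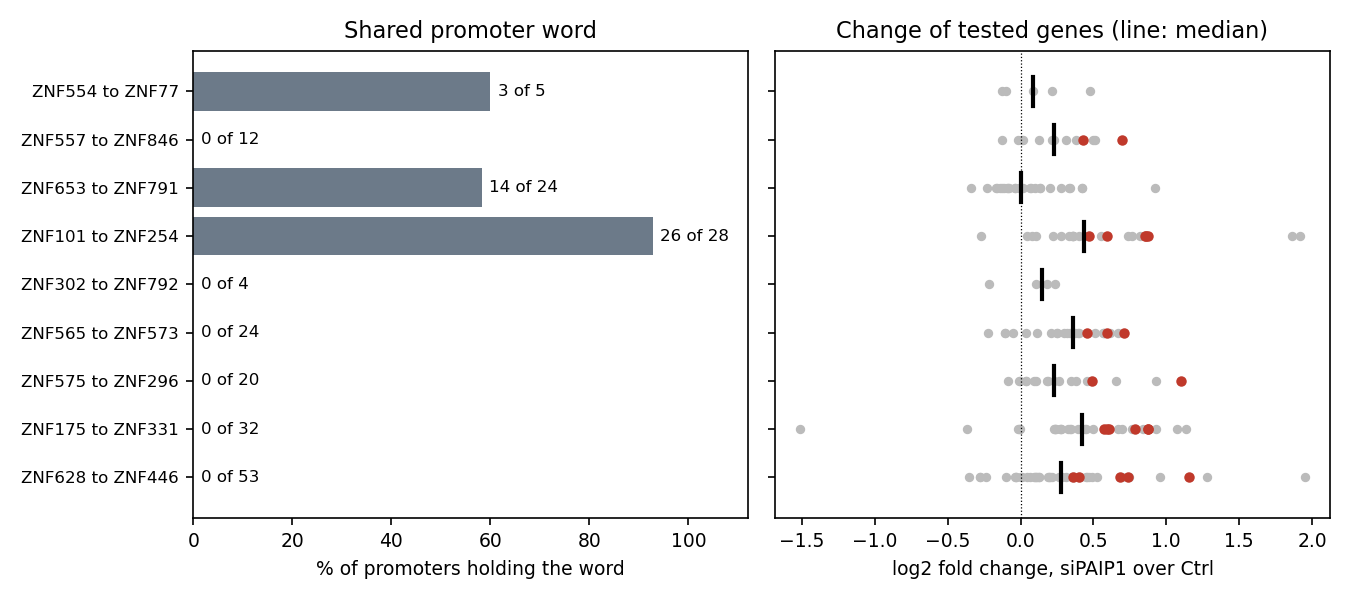
The left panel gives the share of ZNF promoters that hold TCCAATCAGG (horizontal axis, %) in each of 9 clusters of chromosome 19 with 5 or more ZNF genes, with counts beside the bars. The right panel gives the log2 fold change, siPAIP1 over Ctrl, of each tested gene (points, red where the adjusted p was under 0.05) and the cluster median (line). The word is in 26 of 28 promoters of a cluster with a median of 0.43 and in 14 of 24 of a cluster with a median of 0.0035.

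Among ZNF proteins known to bind mobile elements, ZNF91 rose. ZNF91, which silences SVA elements, was at 8.42, 8.46 and 13.8 CPM in siPAIP1 and 5.06, 6.58 and 5.32 CPM in Ctrl (log2 fold change 0.85, SE 0.22, edgeR adjusted p = 0.046). The groups did not overlap, and siPAIP1 replicate 3 was the highest library. The lowest log2 fold change of ZNF91 over the fits leaving out 1 library was 0.57. ZNF765, a binder of L1 elements, was at 4.58, 5.18 and 8.13 CPM in siPAIP1 and 3.92, 3.59 and 3.51 CPM in Ctrl, without overlap but short of the threshold (log2 fold change 0.69, edgeR adjusted p = 0.086). It passed without siPAIP1 replicate 3 (0.40, edgeR adjusted p = 0.046), with no filter on low counts (0.67, edgeR adjusted p = 0.022) and by DESeq2 (0.68, adjusted p = 0.049). ZNF649, which also binds L1 elements, had a log2 fold change of 0.28 (edgeR adjusted p = 0.42), or 0.03 without siPAIP1 replicate 3. ZNF93, another L1 repressor, and ZNF534, known from HERV-H elements, were not tested, with at most 7 and 3 counts in a library.

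ZNF587 and ZNF417, a pair of near-identical genes whose proteins bind endogenous retroviruses, followed siPAIP1 replicate 3. ZNF587 was at 9.74, 10.9 and 59.4 CPM in siPAIP1 and 9.97, 12.1 and 10.7 CPM in Ctrl. ZNF417 was at 1.11, 1.03 and 3.68 CPM in siPAIP1 and 1.53, 1.24 and 1.25 CPM in Ctrl. In both genes replicate 3 was far above the other siPAIP1 libraries, which lay within or below the Ctrl range. The log2 fold changes were 1.28 for ZNF587 (edgeR adjusted p = 0.24) and 0.52 for ZNF417 (edgeR adjusted p = 0.51), and without replicate 3 they were -0.09 and -0.33. Of the 15-residue words in the ZNF587 protein, 77.9% also occur in ZNF417, so fragments of either gene may have been dropped or misplaced. The next pair by shared words, ZNF585A and ZNF585B (54.9%), had log2 fold changes of 0.58 and 0.57 (edgeR adjusted p = 0.14 and 0.056), and ZNF585B passed the threshold without siPAIP1 replicate 3 (0.63, edgeR adjusted p = 0.010).

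Replicate 3 was also high in most of the genes with the largest changes. The 6 highest log2 fold changes were those of ZNF460 (1.95), ZNF724P (1.91), ZNF737 (1.86), ZNF587 (1.28), ZNF583 (1.15) and ZNF808 (1.14). Of these only ZNF583 was called. ZNF460 was at 0.437, 1.06 and 6.50 CPM in siPAIP1 and 0.719, 0.633 and 0.689 CPM in Ctrl, and ZNF724P at 0.525, 0.744 and 5.04 CPM in siPAIP1 and 0.419, 0.543 and 0.689 CPM in Ctrl. ZNF808, which in humans is needed for the pancreas to form, was at 1.17, 0.801 and 4.05 CPM in siPAIP1 and 1.198, 0.875 and 0.623 CPM in Ctrl. In these 3 genes the groups overlapped, and without replicate 3 the changes were 0.13, 0.21 and 0.12. In ZNF737 the groups did not overlap, with 0.700, 0.972 and 2.22 CPM in siPAIP1, all above 0.240, 0.422 and 0.394 CPM in Ctrl. It had an edgeR adjusted p of 0.051 and passed the threshold without replicate 3 (log2 fold change 1.24, edgeR adjusted p = 0.021) as well as by DESeq2 (adjusted p = 0.010) and edgeR's exact test (adjusted p = 0.0080).

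Among the 186 ZNF genes of chromosome 19 with a mean CPM of at least 1, replicate 3 was over 2-fold higher than replicates 1 and 2 on average in 9 (4.84%), against 5.55% of all genes at that level. They were ZNF417, ZNF460, ZNF543, ZNF587, ZNF611, ZNF724P, ZNF8, ZNF808 and ZNF841. No other library stood above its group in this way for any of the 186. That library also has the largest share of multiply mapped reads in the mapping summary of the study, and the part of this in the result was not tested.

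**Figure D4:**
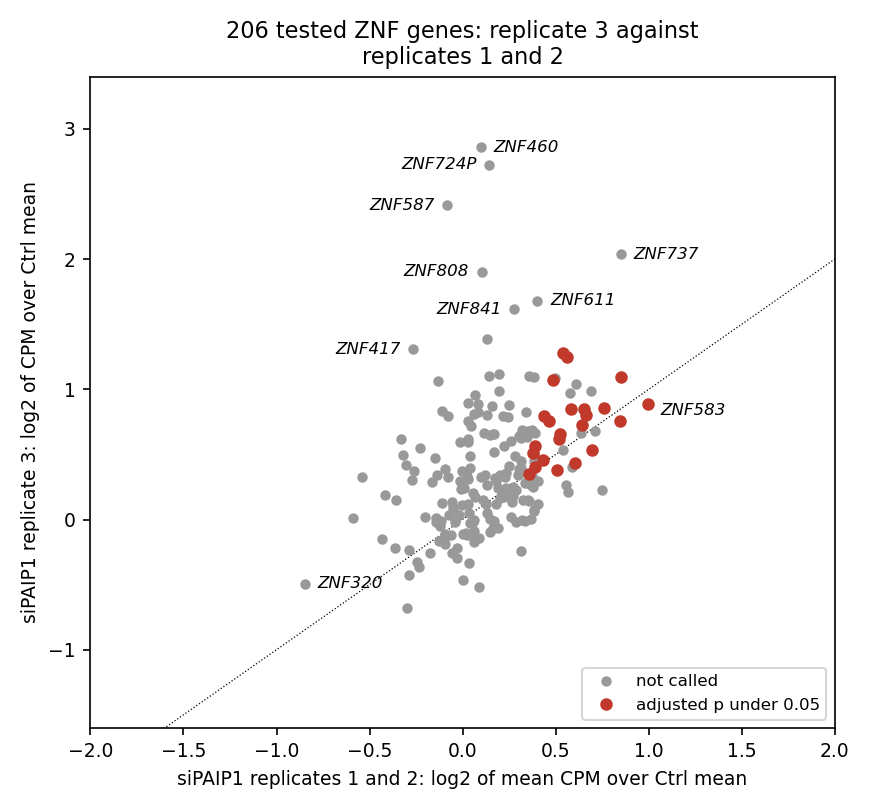
Each point is 1 of the 206 tested ZNF genes, with the log2 ratio of its CPM to the Ctrl mean in siPAIP1 replicates 1 and 2 together (horizontal axis) and in siPAIP1 replicate 3 (vertical axis), and red points have an adjusted p under 0.05. The dotted line marks equal ratios. ZNF460, ZNF724P, ZNF587 and ZNF808 are high in replicate 3 and near 0 in the others. The 23 called genes, which were chosen by adjusted p in these same libraries, are above 0 on both axes.

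The call with the lowest adjusted p was ZNF616, a KRAB protein gene of the ZNF175 to ZNF331 cluster. ZNF616 (chr19:52113091-52139938) was at 5.01, 4.804 and 4.61 CPM in siPAIP1 and 2.76, 2.71 and 2.396 CPM in Ctrl. Replicate 3 was the lowest siPAIP1 library here, and the groups were far apart. The log2 fold change was 0.87 (SE 0.13, edgeR adjusted p = 0.0072), and ZNF616 kept its call in all 12 alternative settings and without any 1 of the 6 libraries. No other ZNF gene of chromosome 19 did so. ZNF134, ZNF426 and ZNF112 kept theirs in all 12 settings, but in 4, 4 and 2 of the 6 leave-one-out fits, and the other 19 kept theirs in 2 to 11 settings and 1 or 2 leave-one-out fits.

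In the same cluster, ZNF766 was at 7.84, 9.69 and 9.39 CPM in siPAIP1 and 5.75, 6.12 and 6.23 CPM in Ctrl (log2 fold change 0.57, SE 0.12, edgeR adjusted p = 0.022). ZNF845 was at 3.38, 2.92 and 3.38 CPM in siPAIP1 and 1.62, 2.17 and 1.48 CPM in Ctrl (log2 fold change 0.88, SE 0.19, edgeR adjusted p = 0.027). Neither gene overlapped between the groups. ZNF468 (0.59), ZNF701 (0.79) and ZNF528 (0.61) completed the 6 calls there, with edgeR adjusted p between 0.041 and 0.048.

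At the end of the long arm, the 5 calls included ZNF274. ZNF274, which binds the ends of other ZNF genes and recruits SETDB1 to them, was at 16.9, 19.3 and 18.3 CPM in siPAIP1 and 13.1, 14.5 and 13.7 CPM in Ctrl (log2 fold change 0.40, SE 0.09, edgeR adjusted p = 0.028). Its neighbour ZNF544 was at 21.2, 21.6 and 21.2 CPM in siPAIP1 and 16.3, 17.0 and 16.6 CPM in Ctrl (log2 fold change 0.36, SE 0.07, edgeR adjusted p = 0.018). The libraries of each group were close together in ZNF544 and the groups did not overlap in either gene. ZNF134, whose protein matched no KRAB pattern, was at 14.8, 13.1 and 14.8 CPM in siPAIP1 and 9.97, 8.54 and 8.11 CPM in Ctrl (log2 fold change 0.68, SE 0.11, edgeR adjusted p = 0.010). ZNF583, a DEG, was at 1.69, 2.14 and 1.76 CPM in siPAIP1 and 0.838, 0.754 and 0.919 CPM in Ctrl (log2 fold change 1.15, SE 0.20, edgeR adjusted p = 0.013). Its lowest siPAIP1 library was above its highest Ctrl library, at a low level in both. ZNF551 completed the 5, with a log2 fold change of 0.74 (edgeR adjusted p = 0.049), or 0.51 in its lowest leave-one-out fit.

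On the short arm outside the cluster next to the centromere, both calls were in ZNF557 to ZNF846. ZNF426, whose protein is known to bind a transactivator of Kaposi's sarcoma herpesvirus, was at 10.1, 10.8 and 12.6 CPM in siPAIP1 and 6.68, 7.60 and 6.43 CPM in Ctrl (log2 fold change 0.69, SE 0.12, edgeR adjusted p = 0.013). ZNF317 was at 16.9, 17.4 and 18.8 CPM in siPAIP1 and 13, 13.2 and 13.2 CPM in Ctrl (log2 fold change 0.43, SE 0.08, edgeR adjusted p = 0.015). The siPAIP1 libraries were all above the Ctrl libraries in both. ZNF121, in the same cluster and at 5.13 to 5.65 FPKM in siPAIP1 and 3.92 to 4.61 FPKM in Ctrl, missed the threshold (log2 fold change 0.31, edgeR adjusted p = 0.063) and passed it without siPAIP1 replicate 3 (0.29, edgeR adjusted p = 0.015).

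On the long arm between these, ZNF112, the other DEG, was at 2.04, 1.86 and 2.36 CPM in siPAIP1 and 1.11, 0.784 and 1.02 CPM in Ctrl (log2 fold change 1.10, SE 0.21, edgeR adjusted p = 0.017). ZNF570 was at 3.56, 3.20 and 2.99 CPM in siPAIP1 and 1.83, 2.14 and 2.002 CPM in Ctrl (log2 fold change 0.71, SE 0.15, edgeR adjusted p = 0.026). Neither overlapped between the groups, and replicate 3 was the highest siPAIP1 library of ZNF112 and the lowest of ZNF570. ZNF569 (0.59) stands beside ZNF570, and ZNF260 (0.45), whose rodent counterpart acts in heart muscle cells, belongs to the same cluster. ZNF227 (0.49) lies near ZNF112, and these 3 had edgeR adjusted p between 0.034 and 0.050.

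In the cluster next to the centromere, ZNF429 was at 1.37, 1.401 and 1.56 CPM in siPAIP1 and 0.719, 0.814 and 0.820 CPM in Ctrl (log2 fold change 0.88, SE 0.19, edgeR adjusted p = 0.029). ZNF486 was at 6.59, 7.29 and 11.7 CPM in siPAIP1 and 4.55, 5.25 and 4.27 CPM in Ctrl, so that replicate 3 was well above the rest. Its log2 fold change was 0.86 (0.56 in its lowest leave-one-out fit), beside 0.59 for ZNF43 and 0.47 for ZNF100, with edgeR adjusted p between 0.042 and 0.050 for the 3. All 5 calls of this cluster, ZNF91 among them, were without overlap between the groups in the libraries by which they were called.

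**Figure D5:**
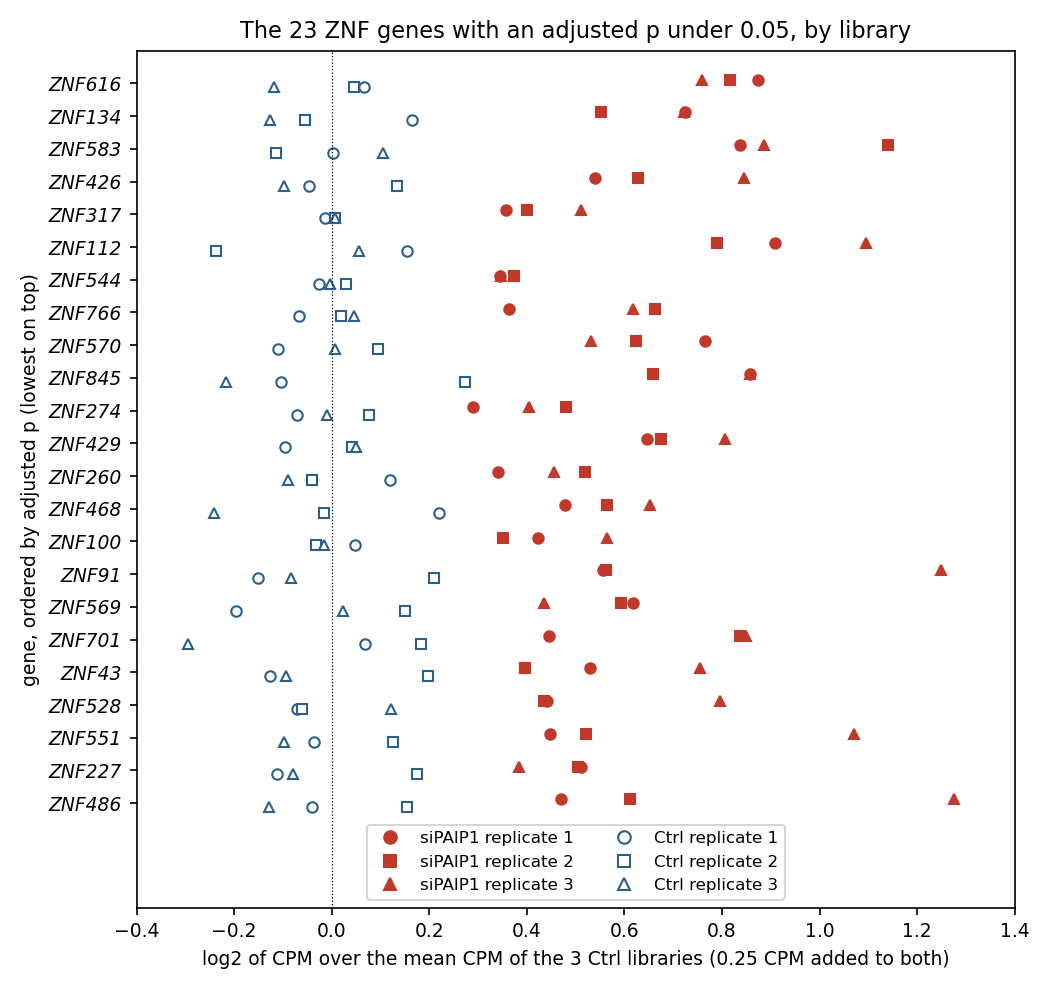
Each row is 1 of the 23 called ZNF genes, ordered by adjusted p, and each marker is 1 library's log2 ratio of CPM to the mean of the 3 Ctrl libraries (horizontal axis), with siPAIP1 filled and Ctrl open. In every row all siPAIP1 markers lie to the right of all Ctrl markers, and siPAIP1 replicate 3 is farthest right by a wide margin in ZNF91, ZNF551 and ZNF486. The rows were chosen by adjusted p in these same libraries, so the separation is not further evidence.

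Most other members with a known role did not pass the threshold. ZNF473, which takes part in processing histone pre-mRNA, was at 2.19 to 2.23 FPKM in siPAIP1 and 1.73 to 1.92 FPKM in Ctrl, without overlap (log2 fold change 0.22, edgeR adjusted p = 0.16). ZNF675, an inhibitor of TRAF6 signaling (0.40, edgeR adjusted p = 0.21), and ZNF382, a transcriptional repressor (0.51, edgeR adjusted p = 0.096), likewise had no overlap. ZNF224, a partner of WT1 (0.09), ZNF175, induced in macrophages by HIV-1 (-0.01), ZNF146, made of zinc fingers alone (0.11), and ZNF8, which binds SMAD proteins (0.70), overlapped between the groups, with edgeR adjusted p of 0.69, 0.98, 0.45 and 0.23. ZNF8 was one of the genes high in siPAIP1 replicate 3 alone, and its lowest log2 fold change leaving out 1 library was 0.13.

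The members with the lowest log2 fold changes were ZNF320 (-1.51), ZNF541 (-0.56), ZNF331 (-0.37), ZNF749 (-0.35), ZNF44 (-0.34) and ZNF780A (-0.32). None was called with all 6 libraries. ZNF320 was at 0.0583, 0.143 and 0.199 CPM in siPAIP1 and 0.449, 0.302 and 0.394 CPM in Ctrl (edgeR adjusted p = 0.072), lower in every siPAIP1 library but at a very low level. ZNF331, an imprinted gene, was at 10.3, 11.3 and 16.5 CPM in siPAIP1 and 14.1, 19.6 and 15.3 CPM in Ctrl, where only replicate 3 overlapped Ctrl (edgeR adjusted p = 0.27). Without that library the change of ZNF331 was -0.60 (edgeR adjusted p = 0.0020). ZNF780A was at 8.19, 8.61 and 9.32 CPM in siPAIP1 and 10.4, 11.9 and 10.3 CPM in Ctrl, without overlap (edgeR adjusted p = 0.085, and 0.016 without replicate 3). ZNF541, a gene of male germ cells, was at 0.08 to 0.17 FPKM in siPAIP1 and 0.13 to 0.21 FPKM in Ctrl, with overlap.

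The most abundant members were not among the calls. By mean FPKM the 6 highest were ZNF428, ZNF444, ZNF114, ZNF581, ZNF787 and ZNF580. ZNF428 was at 28.44, 28.97 and 27.06 FPKM in siPAIP1 and 27.18, 25.83 and 30.04 FPKM in Ctrl, with overlapping groups (log2 fold change -0.0012, edgeR adjusted p = 0.99). ZNF444, which carries a SCAN domain, was at 20.77 to 20.96 FPKM in siPAIP1 and 19.84 to 23.95 FPKM in Ctrl (-0.10, edgeR adjusted p = 0.48). ZNF581 (0.01) and ZNF787 (0.10) also overlapped between the groups. ZNF114 and ZNF580 were lower in every siPAIP1 library, with log2 fold changes of -0.27 and -0.28 (edgeR adjusted p = 0.086 and 0.071), and passed the threshold without replicate 3 (-0.29 and -0.24, edgeR adjusted p = 0.014 and 0.034). Of all 241 members, 89 had a mean of at least 1 FPKM.

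By the proteins they encode, 199 of 239 members with a translated GENCODE transcript matched a KRAB pattern and 2, ZNF444 and ZNF446, a SCAN pattern. The median number of zinc fingers was 12 and the highest 36, in ZNF208, which was not tested. Among 169 tested genes with the KRAB pattern, 21 rose (12.4%, against 5.68% of all tested genes) and the median log2 fold change was 0.31. Among 35 tested genes without it, 2 rose (5.71%, ZNF134 and ZNF260) and the median was 0.11. The pattern had been loosened after a first version, whose values were already known, missed known KRAB proteins, and it still misses some, ZNF675 among them. With that version the medians were 0.32 (142 tested genes, 18 or 12.7% higher) and 0.16 (62 tested genes, 5 or 8.06% higher). By zinc-finger number, the median was -0.01 for 0 to 5 fingers (13 tested genes, 0 higher), 0.28 for 6 to 10 (57, 5 or 8.77% higher), 0.33 for 11 to 15 (85, 12 or 14.1% higher) and 0.26 for 16 or more (49, 6 or 12.2% higher). These classes differ in abundance too, since 5 of the 6 most abundant members (all but ZNF787) are in the class of fewest fingers, and the difference between classes was not tested.

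The RNA of the main partners of KRAB proteins did not pass the test. TRIM28, the corepressor bound by KRAB boxes, was at 122.84, 115.65 and 109.4 FPKM in siPAIP1 and 116.88, 125.91 and 120.36 FPKM in Ctrl (log2 fold change -0.09, edgeR adjusted p = 0.44). Its groups overlapped in FPKM. In CPM its highest siPAIP1 library (386.868) was just under its lowest Ctrl library (386.9). SETDB1 was at 4.61, 4.33 and 5.37 FPKM in siPAIP1 and 4.37, 4.62 and 4.39 FPKM in Ctrl (0.08, edgeR adjusted p = 0.71), with overlap in both measures. In a list of 41 genes of this machinery, all of them tested, 4 rose (9.76%, against 5.68% of all tested genes) and 1 fell (2.44%, against 6.20%), and the median log2 fold change was 0.11. The risers were FAM208A, a subunit of the HUSH silencing complex (0.55, edgeR adjusted p = 0.0070), MTA1 of the NuRD complex (0.72, edgeR adjusted p = 0.015), the histone deacetylase HDAC1 (0.38, edgeR adjusted p = 0.016) and CBX5, which encodes the heterochromatin protein HP1 alpha (0.43, edgeR adjusted p = 0.027). ATF7IP2, a relative of the SETDB1 partner ATF7IP, fell by 0.44 on the log2 scale (edgeR adjusted p = 0.023). Among these 41 genes, 0 rose without Ctrl replicate 1 (1.17% of all tested genes rose), 1 without Ctrl replicate 2 (1.68%) and 0 without Ctrl replicate 3 (1.21%). Without siPAIP1 replicates 1, 2 and 3, 3 (3.57%), 2 (1.85%) and 10 (11.8%) rose. ATF7IP2 was not called without any 1 of the Ctrl libraries or siPAIP1 replicate 2.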

How the data were processed

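The authors trimmed the reads, aligned them to GRCh38 with TopHat2 and deposited raw counts, whole numbers of uniquely mapped fragments for each gene. They also deposited FPKM from the same alignments, to 2 decimals. ZNF470 and ZNF99 had no FPKM entry here. The counting program, whether it used strand, the annotation and the version of TopHat2 were not given in the sources used. Members that overlap other genes, read-through entries (ZNF625-ZNF20, ZNF559-ZNF177) and near-identical members are uncertain. TopHat2, bcl2fastq and edgeR are named in the submitters' processing notes.

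In R 4.3.3, counts of 30987 genes were scaled by TMM and filtered by filterByExpr in edgeR 4.0.16, leaving 15528. Groups were compared by glmQLFit and glmQLFTest with group as the only term and Benjamini-Hochberg adjustment over those genes. CPM values are scaled by TMM. DEGs pass both an adjusted p of 0.05 and a log2 fold change of 1 either way. Other fits used DESeq2 1.42.0, limma 3.58.1 on log2(FPKM + 0.1) and log2(FPKM + 1), other scalings and filters, a length offset (loess span 0.5), a replicate block and leaving out each library. The fit was tested on simulated data with 200 changed genes at each size of change. It recovered 0.5% of 1.5-fold, 69% of 2-fold and 94% of 4-fold changes. In the measured libraries 882 genes rose and 963 fell, many more than 200, and adjusted p depends on how many genes change. These shares therefore do not carry over to the calls given here, which included ZNF544 at a log2 fold change of 0.36. Recovery at the level of the ZNF genes (median 4.43 CPM, against 16.7 CPM over all tested genes) was not tested. A gene not called may still have changed. Log2 ratios add 0.25 CPM.

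Positions and promoters came from RefSeq GRCh38.p14. All 241 members matched (239 by symbol, 2 by synonym), and 210 had a promoter. Proteins were translated from GENCODE release 44 (239 members) in place of RefSeq proteins. Promoter words of 10 bases were chosen from the sequences, without expression values. Python 3.11.15 with pandas 2.3.3, numpy 2.4.6, Biopython 1.88 and matplotlib 3.10.9 was used.

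Genes named are all called members, the 6 with the highest FPKM, the 6 highest and 6 lowest log2 fold changes, members with known roles, the lowest adjusted p in each cluster, the pairs sharing most protein words, and TRIM28, SETDB1 and called machinery genes. Others were named after their values were seen. The members and lists were chosen with earlier results of these data known. Huh7 cells, qPCR, blots and tissue data were not analysed here.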

Additional observations from a re-analysis of the deposited data

How the results depend on the processing

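With settings changed 1 at a time, the count of ZNF genes higher was 17 to 29 under other scalings, filters and tests (3.85% to 6.43% of all tested genes), 11 with the gene-length trend removed (3.43%), and 1 to 37 over the fits leaving out 1 library (1.17% to 11.8%), with a share under that of all tested genes in 4 of 6 fits. The count lower was 1 by edgeR's exact test (6.58% of all tested genes fell), 3 with the length trend removed (8.03%) and 0 to 6 leaving out 1 library (1.68% to 12.4%). DEGs numbered 7 with no filter on low counts, 4 by DESeq2, 4 by edgeR's exact test, 0 by limma-trend on log2(FPKM + 0.1), 0 on log2(FPKM + 1) and 0 to 4 leaving out 1 library (0.942% to 2.74% of all tested genes). For the settings that keep all libraries, the share of DEGs over all tested genes was not worked out, so these counts have no background beside them. The median log2 fold change was 0.11 by limma-trend on log2(FPKM + 1), where the added 1 shrinks low genes, and 0.13 with the length trend removed, and 0.17 to 0.32 leaving out 1 library. Machinery genes higher were 7 with no filter (17.1%, against 3.85% of all tested genes), 1 with the length trend removed (2.44%, against 3.43%) and 0 to 10 leaving out 1 library (1.17% to 11.8% of all tested genes). Machinery genes lower were 0 by limma-trend at pseudocounts of 0.1 and 1 (3.91% and 3.79% of all tested genes fell) and 0 to 1 leaving out 1 library (1.68% to 12.4%).

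Deviations from the group mean correlated at 0.35, -0.37 and -0.17 between same-numbered replicates. Such deviations within a group of 3 constrain each other, so these values cannot show whether the numbers pair the libraries. A replicate block gave 6 ZNF genes higher (2.91%, against 2.36% of all tested genes, with 4 of the 23 among them), 2 machinery genes higher (4.88%) and 0 lower (2.96% of all tested genes fell). The block with the length trend removed gave 8 ZNF genes higher (3.88%, against 2.68%), 2 lower (0.97%, against 6.46%), a median of 0.13 and 1 machinery gene higher (2.44%).

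Over 68 named genes, 1222 values under other settings comprised 945 on the same side of the threshold with the same direction, 207 that lost the call, 31 that gained it and 39 of opposite sign. Opposite signs came from genes not called. With the length trend removed, the log2 fold change was -0.027 for ZNF224, -0.053 for ZNF581, -0.011 for ZNF787 and -0.063 for SETDB1. With the block added to that, it was -0.023 for ZNF224, -0.00633 for ZNF146, -0.054 for ZNF581, -0.013 for ZNF787 and -0.067 for SETDB1. The block alone gave 0.00518 for ZNF175 and 0.000457 for ZNF428. ZNF175 was at 0.00748 and 0.000361 by limma-trend at pseudocounts of 0.1 and 1, and ZNF428 at 0.0266 and 0.0257. Protein-coding library sizes gave 0.00247 for ZNF428 and 0.00527 for ZNF333, and at least 10 counts in all libraries gave 0.00262 and 0.0029. ZNF333 was at 0.00214 by limma-trend at a pseudocount of 1. ZNF581 was at -0.0013 with RLE factors, -0.000679 with no filter and -0.000994 by DESeq2. Leaving out 1 library, the ranges were -0.328 to 0.826 for ZNF417, -0.089 to 1.68 for ZNF587, -0.187 to 0.103 for ZNF175, -0.048 to 0.044 for ZNF428, -0.037 to 0.066 for ZNF581, -0.016 to 0.16 for ZNF787, -0.362 to 0.192 for ZNF333 and -0.073 to 0.165 for SETDB1. The cause was not tested. The cluster medians under each setting and the first KRAB pattern were chosen after seeing the data. Median FPKM under 1 limits the precision of most ZNF genes.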
